A study of Oryctolagus cuniculus with 54 samples.

Results

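Lungs of rabbit pups born preterm were compared with lungs of pups born at term at a similar time after delivery. The preterm group, P7, held 3 New Zealand White pups delivered by C-section on day 28 of gestation and collected 7 days later, on day 35 after conception. They were kept at room air and, as the study states, fed milk formula. The term group, T37, held 4 pups of the same strain, born naturally on day 31, kept with their mothers at room air and collected 6 days later, on day 37. The comparison used 13 of the 54 libraries of the series: the 3 P7 libraries, the 4 T37 libraries and 6 libraries of 3 other animals. These 3 animals (F28 animal 2, a fetus of day 28, and T35 animals 6 and 11, term pups 4 days after birth) were each sequenced in run 2 and again in run 3. They were needed because P7 animals 3 and 4 were sequenced in run 2, while P7 animal 1 and all T37 animals were sequenced in run 3. Day of delivery, mode of birth, housing and feeding, days since delivery and age from conception all differ between P7 and T37, and their parts cannot be told apart.

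The rabbit lung is in the saccular phase around day 28 of gestation, when the distal airspaces are still wide sacs with thick walls. In the alveolar phase that follows, secondary septa divide these sacs, the walls thin, and the double capillary layer begins to merge into a single one. Breathing starts at delivery, so a preterm pup passes through the rest of the saccular phase while ventilating air, whereas a term pup spends it in the uterus. Comparing both at a similar postnatal age asks how far the messenger RNA content of the lung differs once both groups have breathed for about the same time.

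Gene expression was measured in homogenates, labelled as right lung, with a method that sequences 1 short read near the 3′ end of each captured messenger RNA. The values are therefore proportions over all cells of the lung, and fewer cells of a type cannot be told apart from less RNA per cell. Total counts were 6962801 to 7778938 in P7 and 6943764 to 7313919 in T37, within the 5771693 to 8073755 of all 54 libraries. Of 29587 genes listed, 13900 reached 0.5 CPM, the counts of a gene scaled to a common library size, in at least 3 of the 13 libraries and were tested. The table names genes by Ensembl identifier only and 0 of these could be paired with a symbol, so cell type markers could not be read and the tissue label could not be checked against them. Genes are therefore described below by rank and by their course over other time points.

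In all, 759 genes (5.46% of those tested) were called with the run difference removed. A call means a change of more than 2-fold in either direction with an adjusted p no higher than 0.05 in edgeR's quasi-likelihood test. Of these, 402 (2.89%) were higher and 357 (2.57%) were lower in P7 than in T37. Changes were moderate for most called genes: the median was 1.54 on the log2 scale among genes called higher and −1.40 among genes called lower. A difference above 2 on the log2 scale was found for 114 called genes higher and 76 lower, and one above 3 for 38 higher and 21 lower. The adjusted p alone was passed by 2290 genes, 1202 higher and 1088 lower. The run-adjusted values of P7 and T37 did not overlap in 717 of the 759 called genes, and in 33.5% of all genes tested. The run term was partly fitted to P7, so its removal can draw the P7 values together and make such separation more frequent.

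**Figure D1:**
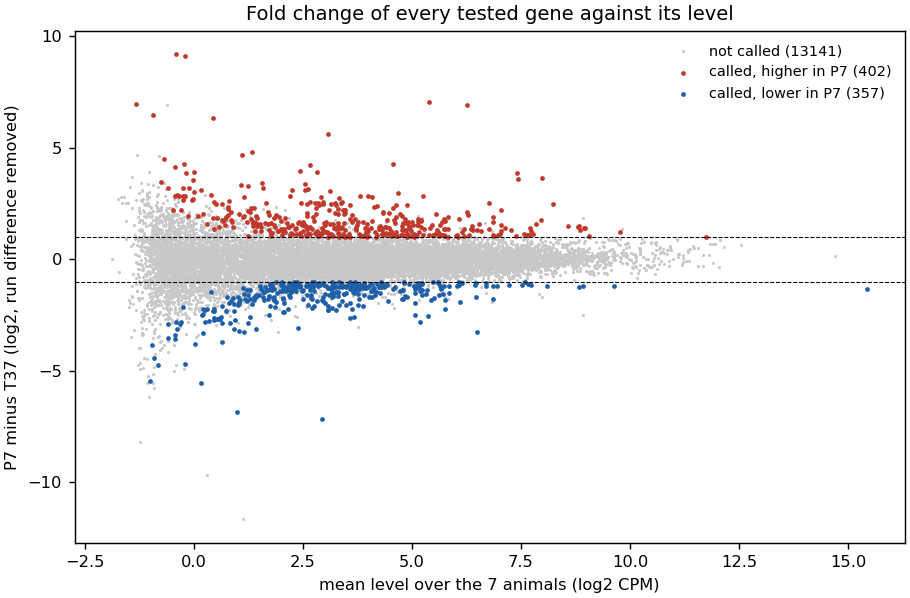
Log2 difference between P7 and T37 of the 13900 tested genes, with the run difference removed, against their mean level over the 7 animals in log2 CPM. Red and blue points are the 402 genes called higher and the 357 called lower in P7, grey points were not called, and the dashed lines mark a fold change of 2. The called genes lie at all levels, and the blue point at the far right is the most abundant gene.

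Among the 1945 genes with a mean of 100 CPM or more, 42 (2.16%) were called higher and 18 (0.925%) lower in P7. Among the 4145 genes of 1 to 10 CPM, 154 (3.72%) were called higher and 182 (4.39%) lower. The genes called higher took 2.85% to 4.07% of all counts in the 3 P7 libraries and 1.31% to 1.46% in the 4 T37 libraries. The genes called lower took 2.81% to 3.8% in P7 and 5.28% to 10.1% in T37, where the lowest value belonged to animal 27. Most of these counts came from the most abundant gene of the lung, which is described further below.

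The genes with the largest differences were taken among called genes that had a mean of at least 2 CPM and no overlap between the groups, which left 344 higher and 283 lower. The 12 with the largest differences in each direction lay between 3.63 and 9.11 (higher) and between −6.83 and −2.59 (lower) on the log2 scale. In 8 of the 12 higher genes, every P3 library (preterm pups 3 days after delivery) was above every P0 library (preterm pups on the day of delivery), both sequenced in run 2, which held for 12.2% of all genes tested. In 1 of the 12 lower genes every P3 library was below every P0 library, which held for 12.3% of all genes.

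The gene ENSOCUG00000017744 was abundant in the preterm lungs and near its floor at term. Its level was 624, 710 and 826 CPM in P7 animals 3, 4 and 1, and 2.26, 11.7, 5.17 and 3.23 CPM in T37 animals 12, 27, 46 and 47. The groups were far apart, with a log2 difference of 7.07 (approximate SE 0.48) and an adjusted p of 2.25e-05. It was at 1.69 to 3.63 CPM in the 3 P0 pups and at 362 to 848 CPM in the 3 P3 pups. In term pups it lay between 0.147 and 2.94 CPM at T31 (the day of birth), between 2.95 and 4.7 CPM at T35, and between 0.738 and 1.06 CPM at T42 (11 days after term birth). The preterm pups thus stood above the term pups of every collected day from day 3 after delivery onward, and not on the day of delivery.

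The gene of rank 3 among those higher in P7 had a like course with a much wider spread between pups. It stood at 163, 1620 and 2560 CPM in P7 animals 3, 4 and 1, and at 7.35 to 19.5 CPM in T37, a log2 difference of 6.91 (approximate SE 0.79) with an adjusted p of 0.000315. At P0 it was at 6.42 to 9.16 CPM, and the 3 P3 pups had 47.3, 580 and 1490 CPM. At T42 it was at 35.9 to 45.8 CPM, above T37 and below each P7 pup. The gene of rank 5 also had its lowest P7 value in animal 3: 23.1, 87.4 and 107 CPM in animals 3, 4 and 1, against 0.929 to 2.96 CPM in T37, a log2 difference of 5.60 with an adjusted p of 0.000176. It was not low in all newborn term pups, since 1 T31 pup had 69.1 CPM and the other two 8.67 and 3.1 CPM. The genes of ranks 11 and 12 had smaller approximate SE, at log2 differences of 3.86 (approximate SE 0.21) and 3.63 (approximate SE 0.25). Their mean levels over the 7 animals were 324 and 496 CPM, and their adjusted p were 6.07e-06 and 2.25e-05. In both, T37 was also below T31 and T42. Rank 11 stood at 44.9 to 90.2 CPM in T37, 128 to 200 CPM at T31 and 116 to 179 CPM at T42. Rank 12 stood at 58.4 to 122, 236 to 377 and 153 to 271 CPM in the same order. The P7 values of rank 11 were 406 and 562 CPM in run 2 and 1010 CPM in run 3.

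A gene of another kind, ENSOCUG00000015884, had a fitted log2 difference of 9.11 (approximate SE 1.68) and an adjusted p of 0.00777. The rank of a gene against a group at 0 depends on the fit: with limma-voom its difference was 6.42 (adjusted p = 0.0641), below the 7.45 of ENSOCUG00000017744 (adjusted p = 2.65e-06). It had 2, 59 and 122 counts in P7 animals 3, 4 and 1, or 0.271, 7.44 and 15.8 CPM, and 0 counts in all 4 T37 animals. Over the groups this is 183 counts against 0, at least 76.9-fold higher in P7 when 3 counts are set as the floor of the T37 group as a whole. The gene was also present in some pups and near or at 0 in others at other time points, with 20, 0 and 68 counts in the P0 pups and 0, 30 and 2 in the T42 pups. The 2 T35 animals kept their own level in both runs, with 1 and 0 counts in animal 6 and 35 and 27 in animal 11. The value thus differed between animals within groups, and the call was lost without P7 animal 1 (adjusted p = 0.0905, log2 difference 7.26).

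Among the genes so chosen, the one with the largest difference downward, ENSOCUG00000027290, showed the same kind of presence and absence. P7 animals 3, 4 and 1 had 0, 0 and 1 counts, and T37 animals 12, 27, 46 and 47 had 44, 30, 83 and 96 counts, or 5.84, 4.16, 11 and 12.9 CPM. The log2 difference was −6.83 (approximate SE 0.84) with an adjusted p of 0.000573, and the ratio of T37 to P7 was 201 with a 95% counting interval of 35.7 to 7953. Pups without a single count were found elsewhere too: P0 animal 3, P3 animal 1 and T35 animal 11, the last in both runs. The other P0 and P3 pups had 4.92 to 8.18 CPM. None of the 4 T37, 3 T42 and 3 T31 pups of run 3 was at 0.

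A gene low in P7 by a graded difference was ENSOCUG00000022908. It stood at 39.9, 25.6 and 26.5 CPM in P7 animals 3, 4 and 1, and at 94.5, 803, 234 and 85 CPM in T37 animals 12, 27, 46 and 47. The groups did not overlap, but T37 animal 27 was far above the others, and the log2 difference of −3.26 (approximate SE 0.83, adjusted p = 0.0203) became −2.13 without it (adjusted p = 0.00433). Its level was lower in newborns, with 5.92 to 16.3 CPM at T31 and 8.93 to 24.7 CPM at P0. The 2 T35 animals had 36.8 to 53.4 CPM over their 4 libraries. P7 animal 3 lay within that range and P7 animals 4 and 1 below it. T42 pups had 58.1 to 122 CPM. The call was lost without P7 animal 1 (adjusted p = 0.146). Further down, the gene of rank 7 stood at 0.814, 1.51 and 1.94 CPM in P7 and at 3.5 to 25.3 CPM in T37, and at 7.96 to 15.6 CPM in T42. Low values were not particular to preterm pups, with 1.54 to 2.82 CPM at T31 and 0.295 and 0.854 CPM in T35 animal 11. T35 animal 6 had 4.21 and 4.55 CPM, P0 animal 4 had 10 CPM and P3 animal 1 had 4.07 CPM.

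**Figure D2:**
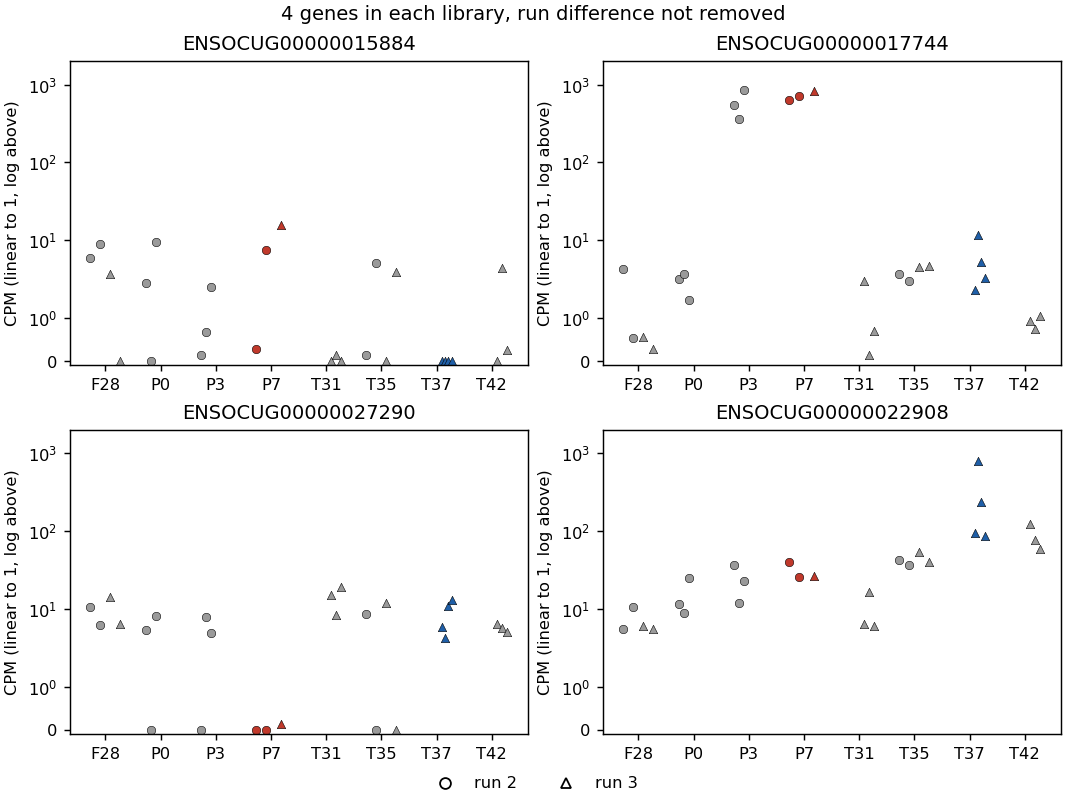
Level of the 4 genes described by identifier in each library, in CPM without removal of the run difference, on an axis that is linear up to 1 and logarithmic above. Circles are libraries of run 2 and triangles of run 3, and P7 is red and T37 blue. The P7 libraries of ENSOCUG00000017744 lie at 624 to 826 CPM beside the P3 libraries, and the 4 T37 libraries of ENSOCUG00000015884 lie at 0.

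The most abundant gene of the tested set was among those called lower in P7. It took 3.13%, 2.15% and 2.52% of all counts in P7 animals 3, 4 and 1, and 8.78%, 4.35%, 7.06% and 8.59% in T37 animals 12, 27, 46 and 47. The groups did not overlap, with a log2 difference of −1.34 (approximate SE 0.24) and an adjusted p of 0.00321. Its share was 1.68% to 3.51% at P3 and 2.75% to 4.11% at P0. Every preterm library thus stood below every T37 library when the run difference was left in. Apart from P7 animal 1, the preterm libraries were of run 2, and all T37 libraries were of run 3. The fitted run difference of this gene was 0.15 log2 units, higher in run 3. The nearest values, 4.11% at P0 and 4.35% in T37 animal 27, were of different runs, so their order is not certain. A low share was not particular to preterm pups: the F28 fetuses had 4.22% and 2.54% in run 2 and 4.93% and 3.9% in run 3. In term pups the share was 5.44% to 9.74% at T31, 5.97% to 8.3% at T35 and 7.08% to 8% at T42. The second most abundant gene took 1.83%, 6.04% and 4.37% in P7 and 1.32%, 7.82%, 1.43% and 1.61% in T37, and was not called (log2 difference 0.14, adjusted p = 0.914). Its T37 values were split between animal 27 and the other three, and in F28 animal 2 it had 2.64% of counts in run 2 and 0.977% in run 3.

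The size of the run difference was measured in the same fit. Between runs 3 and 2, 241 genes (1.73%) were called, 99 (0.712%) higher and 142 (1.02%) lower in run 3. The run term came from the repeated animals and also from P7, which had libraries in both runs. Differences between P7 animal 1 and P7 animals 3 and 4 therefore entered it, and these are different pups. Of the 759 genes called between P7 and T37, 93 were also called between runs. The 30 among genes higher in P7 were all higher in run 3, and the 63 among genes lower in P7 were all lower in run 3. The median run difference was 0.36 among genes called higher, −0.69 among genes called lower and 0.01 over all genes (log2). The run estimate enters both values for a gene, since P7 animals 3 and 4 were moved by it, and its part in the calls was not tested beyond the values that follow. Within run 3, with no run term, P7 animal 1 was above all 4 T37 animals in 402 of the 402 genes called higher (median difference 1.56) and below all of them in 349 of the 357 called lower (median −1.34). Over all genes tested it was above all T37 animals in 28.4% and below all of them in 29%. P7 animal 1 took part in the calls, so these shares do not stand apart from them.

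Leaving out P7 animal 1, the one P7 library of the T37 run, brought the calls from 759 to 370, with 226 higher and 144 lower. Leaving out T37 animal 27 raised them to 1029, with 488 higher and 541 lower. With the P7 and T37 libraries alone and no run term, 163 genes were called higher and 28 lower. Of the 759 calls, 285 were also called without P7 animal 1, 698 without T37 animal 27 and 185 without the run term.

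The genes called higher in P7 were followed over the other days of preterm life. Their median level in run 2 was 2.34 to 2.58 log2 CPM in the 2 F28 libraries, 2.66 to 2.73 at P0, 3.47 to 3.52 at P3 and 4.10 to 4.14 in the 2 P7 libraries. P3 stood above P0 without overlap, while F28 and P0 are of the same day of gestation, and the 2.84 to 2.90 of F28 in run 3 lay above P0. P7 and T37 values chose these genes, so the step from P3 to P7 is a description only. In run 3 the same genes had a median level of 2.89 to 3.14 at T31, 3.38 to 3.42 at T35, 2.56 to 2.91 at T37 and 3.27 to 3.32 at T42, and 4.58 in P7 animal 1.

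The genes called lower in P7 showed a smaller range over preterm life. Their median level in run 2 was 2.71 to 2.90 log2 CPM at P0, 2.48 to 2.78 at P3 and 2.61 to 2.66 at P7, so P3 overlapped P0 and held the P7 values within its range. In run 3 it was 2.42 to 2.81 at T31, 2.27 to 2.42 at T35, 3.17 to 3.53 at T37 and 2.96 to 3.14 at T42, and 1.86 in P7 animal 1. The same 2 T35 animals had 2.79 to 3.14 in run 2, above both P7 libraries of that run. F28 libraries had 2.75 to 2.91 in run 2 and 2.31 to 2.40 in run 3. Levels of these genes can therefore be compared within a run only. Set beside the 2 T35 animals in the same fit, genes called higher had a median P7 minus T35 difference of 0.97 and a median T37 minus T35 difference of −0.59. Genes called lower had a median P7 minus T35 difference of −0.37 and a median T37 minus T35 difference of 1.05. Over all genes both medians were near 0, at 0.02 and 0.05. P7 and T37 values chose the called genes, so opposite signs of the 2 differences follow in part from that choice. Which group moved away from T35 was not tested. No calls are given against T35, because each of its 2 animals enters this fit with its own term and only repeat libraries as error.

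**Figure D3:**
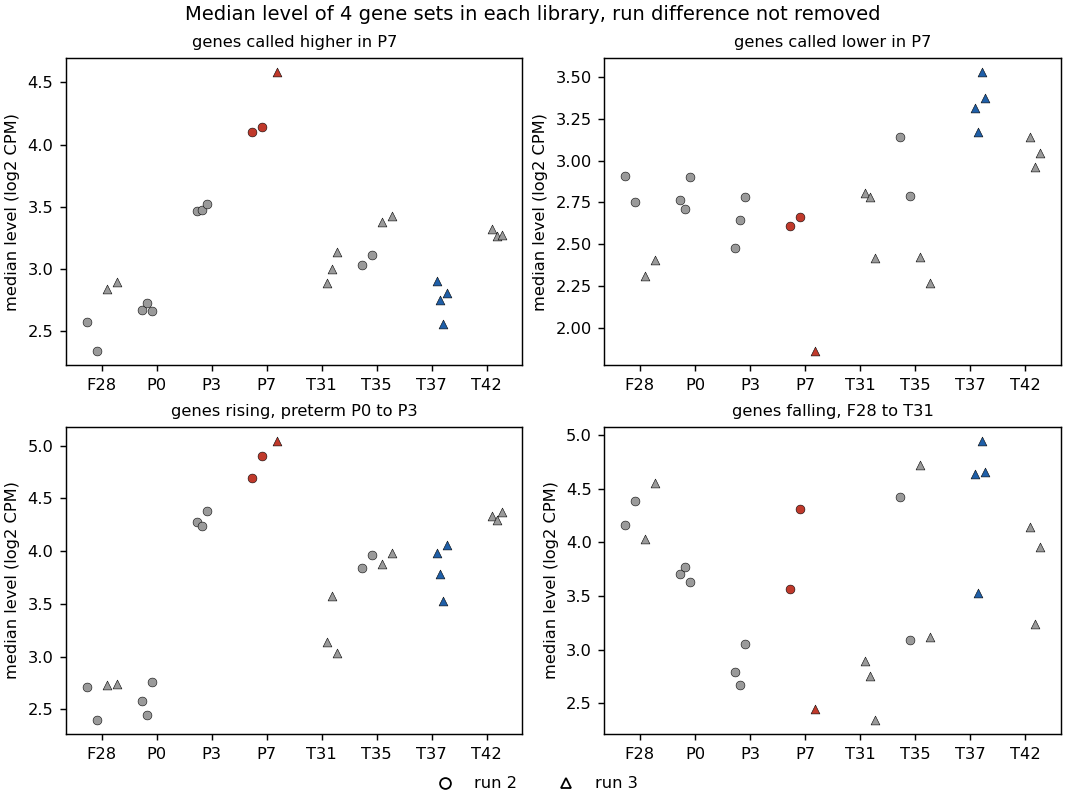
Median level in log2 CPM of 4 gene sets in each library, without removal of the run difference; the vertical axes differ and do not start at 0. Circles are run 2 and triangles run 3, P7 is red and T37 blue, and the upper 2 sets were chosen on these P7 and T37 libraries while the lower 2 were not. Genes rising from P0 to P3 lie highest in P7, and genes falling from F28 to T31 differ between pups of the same group.

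To describe the 2 directions without gene names, genes were grouped by 4 time courses of libraries that held no P7 or T37 library, each within 1 run. The courses were preterm P0 to P3 in run 2, T31 to T42 and the early fetal days F20 and F23 to T42 in run 3, and F28 to T31 in run 1. The study's methods state that whole lungs were used on days 20 and 23, although the labels give the right lung, so the tissue taken may differ within that course. A gene was placed as rising or falling in a course by the same thresholds. The shares of genes so placed were 1.81% and 0.803%, 1.83% and 0.421%, 14.7% and 10.1%, and 0.188% and 0.49% of those tested, in that order.

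Of the 235 genes rising from P0 to P3, nearly all of those called were higher in P7 than in T37. All 235 passed the filter, 109 (46.4%, against 2.89% of all genes) were called higher, 1 was called lower and 125 were not called. Their median P7 minus T37 difference was 1.05, against −0.02 over all genes, with quartiles of 0.53 and 1.60. These 109 genes were 27.1% of all genes called higher. After removal of the run difference, the median level of the 235 genes was between 4.79 and 5.07 log2 CPM in the 3 P7 animals, lowest in animal 3, and 4.00, 3.79, 3.55 and 4.08 in T37 animals 12, 27, 46 and 47. Within single runs it was 2.44 to 2.76 at P0, 4.24 to 4.38 at P3 and 4.29 to 4.37 at T42, so each P7 library (4.70, 4.90 and 5.05) stood above the P3 and T42 libraries. The median difference was between 0.98 and 1.14 over 21 settings, while the count called higher became 71 without P7 animal 1 and 62 with run 3 alone.

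Genes falling from P0 to P3 were called in both directions. Of 104 such genes 102 passed the filter, with 8 (7.84%, against 2.89% of all genes) called higher, 6 (5.88%, against 2.57%) called lower and a median P7 minus T37 difference of −0.45. After removal of the run difference, their median level was 3.60, 4.22 and 3.37 log2 CPM in P7 animals 3, 4 and 1 and between 3.83 (animal 27) and 4.595 in T37, so the groups overlapped. The count called lower depended on single animals of both groups: it was 2 without P7 animal 1, 22 without P7 animal 4 and 30 without T37 animal 27, and 3 without each of P7 animal 3, T37 animal 46 and T37 animal 47.

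Among genes that rise from the early fetal lung to T42, more were called higher than lower in P7. Of 2058 genes, 2052 passed the filter, with a median difference of 0.20. In all, 221 (10.8%, against 2.89% of all genes) were called higher and 63 (3.07%, against 2.57%) lower. They made up 55% of all genes called higher and 17.6% of those called lower, and 14.8% of all genes tested. Their median level was 3.92, 3.94 and 4.05 log2 CPM in P7 and 3.62, 3.68, 3.52 and 3.68 in T37 after removal of the run difference, with no overlap. In single runs the T42 libraries had 3.76 to 3.95, and P7 3.81, 3.84 and 4.03. Without P7 animal 1, 123 were called higher and 20 lower. With P7 and T37 alone and no run term it was 128 and 10, and with run 3 alone 99 and 3.

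Among genes that fall from the early fetal lung to T42, more were called lower than higher. Of 1415 genes, 1244 passed the filter, with a median of −0.43. In all, 11 (0.884%, against 2.89% of all genes) were called higher and 87 (6.99%, against 2.57%) lower. They were 24.4% of all genes called lower and 8.95% of the genes tested. Their median level was 1.94, 2.21 and 1.93 log2 CPM in P7 and 2.53, 2.16, 2.71 and 2.62 in T37, where animal 27 lay within the range of P7. The number called lower ranged widely when 1 animal was left out, from 19 without P7 animal 1 to 202 without T37 animal 27, with 135 without P7 animal 4, while 4 were called higher without P7 animal 1. With no run term 5 were called lower and 2 higher, and with run 3 alone 6 lower and 4 higher. The number called lower lay between 42 and 56 without P7 animal 3, T37 animals 46 or 47, F28 animal 2, T35 animal 6 or T35 animal 11.

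Genes that rise over the first 11 days of term life were called equally often in both directions. Of 234 genes rising from T31 to T42, 24 (10.3%, against 2.89% of all genes) were called higher and 24 (10.3%, against 2.57%) lower in P7. Their median was −0.13, which became 0.04 without P7 animal 1. That leave-out gave 15 higher and 5 lower, the fit with no run term 10 and 6, and run 3 alone 7 and 3. Of 54 genes falling from T31 to T42, 7 (13%, against 2.89% of all genes) were called higher and the other 47 were not called, with a median of 0.44. Their median level was 5.11, 4.68 and 5.03 log2 CPM in P7 animals 3, 4 and 1, above the 3.81 to 4.50 of T37, and the T31 libraries of run 3 had 5.51 to 6.11. Without P7 animal 1, 3 of the 54 were called higher and the median was 0.21.

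The small set of genes that falls between F28 and T31 differed widely between pups of the same group. Of 65 genes, 18 (27.7%, against 2.57% of all genes) were called lower in P7 and 1 higher, with a median of −1.35. After removal of the run difference the median level was 3.17, 4.11 and 2.46 log2 CPM in P7 animals 3, 4 and 1, and 4.66, 3.53, 4.97 and 4.67 in T37 animals 12, 27, 46 and 47. P7 animal 4 was thus above T37 animal 27, and the groups overlapped. The 2 T35 animals also differed, with 4.30 and 4.76 in the 2 libraries of animal 6 and 2.61 and 3.13 in those of animal 11. The count called lower was 2 without P7 animal 1, 10 without P7 animal 3, 36 without P7 animal 4, 45 without T37 animal 27, 8 without T37 animal 46 and 11 without T37 animal 47. It was 0 with no run term, 3 with run 3 alone and 37 with all libraries of runs 2 and 3. The median ran from −2.33 with run 3 alone to −0.77 without P7 animal 1, and was −0.98 with no run term. Of the 25 genes rising from F28 to T31, 4 (16%, against 2.89% of all genes) were called higher and 1 (4%, against 2.57%) lower, with a median of 0.30, which was 0.18 without P7 animal 1.

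**Figure D4:**
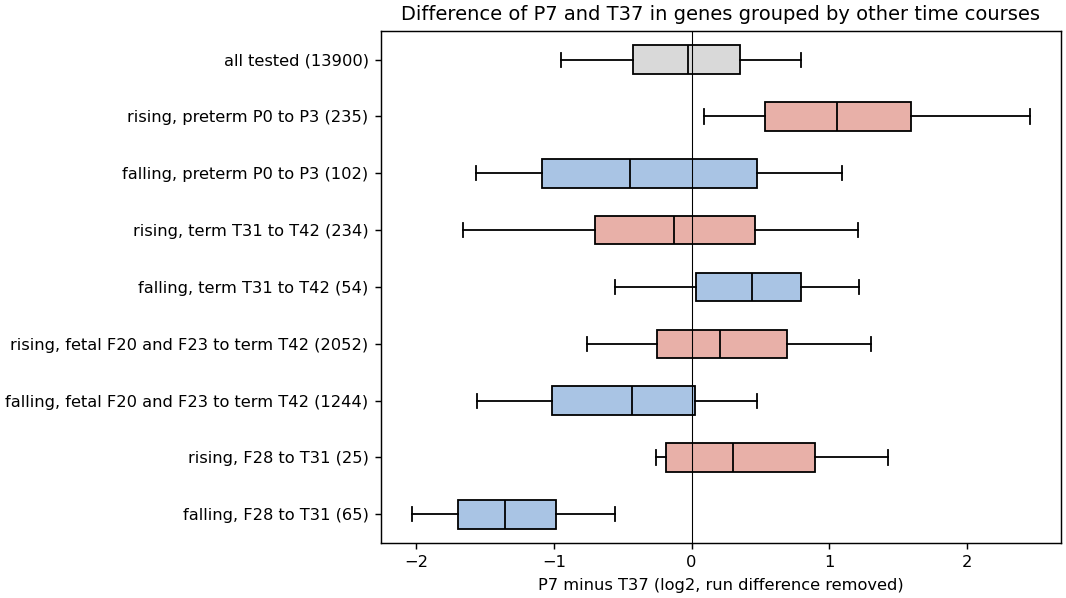
Log2 difference between P7 and T37, with the run difference removed, in all tested genes (grey), in genes rising (red) and in genes falling (blue) over 4 time courses made of other libraries. Boxes show the quartiles and the median, whiskers the 10th and 90th percentiles, and the number of genes is in brackets. Genes rising from P0 to P3 have a median of 1.05 and genes falling from F28 to T31 one of −1.35, and all genes lie around −0.02.

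Whole profiles were compared within single runs as the root mean square log2 difference per gene. In run 2, P7 animals 3 and 4 were nearest to the mean of P3 (0.611 and 0.568), then to T35 (0.653 and 0.676), P0 (0.752 and 0.773) and F28 (0.814 and 0.795). In run 3, P7 animal 1 was nearest to the mean of T35 (0.683), then T42 (0.724), T37 (0.791) and T31 (0.799). Of the 4 T37 animals, 3 were nearest to the mean of the other T37 animals, at 0.525 to 0.554. Animal 27 was 0.671 from that mean and 0.634 from the mean of T42. Between single libraries, P7 animal 1 and the T37 animals were 0.852 to 0.944 apart, T37 animals among themselves 0.600 to 0.775, and P7 animal 1 and the T42 animals 0.810 to 0.837. The means were made of 2 to 4 libraries, and a mean of fewer libraries carries more counting noise. In run 2 the mean of P3 held 3 libraries and that of T35 held 2. Between single libraries of run 2, P7 animal 3 was 0.711 to 0.719 from the P3 pups and 0.718 and 0.752 from the T35 pups. P7 animal 4 was 0.630 to 0.708 from the P3 pups and 0.745 and 0.766 from the T35 pups.

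**Figure D5:**
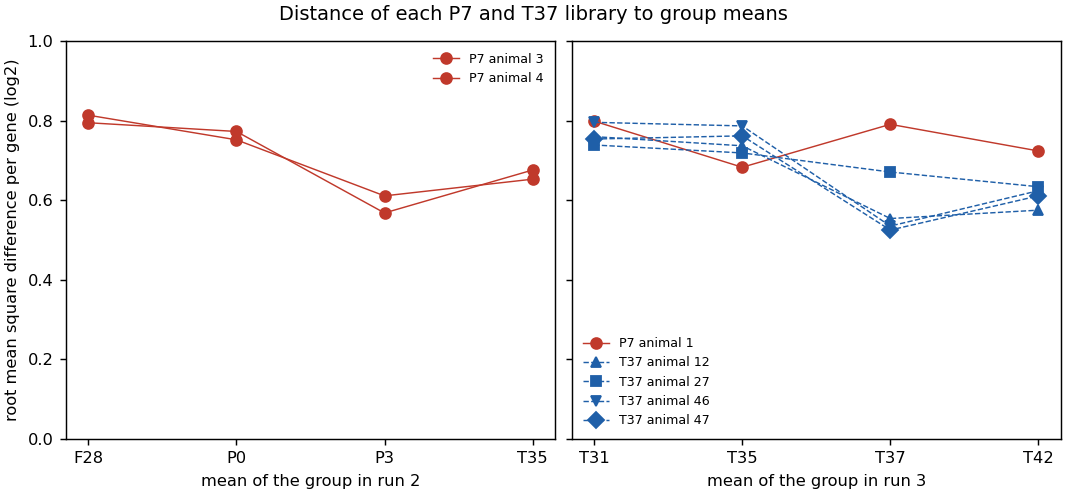
Root mean square log2 difference per gene between each P7 library (red) and T37 library (blue) and the means of groups in the same run, with run 2 on the left and run 3 on the right. The mean of T37 leaves out the animal compared with it, and lines join the values of 1 animal. P7 animal 1 is nearest to T35 (0.683), and T37 animal 27 is nearer to T42 (0.634) than to the other T37 animals (0.671).

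The spread between animals was taken per gene. The median SD per gene after removal of the run difference was 0.219 log2 units in P7 (n = 3) and 0.284 in T37 (n = 4), against 0.170 between the repeat libraries of 1 animal. In genes with a mean of at least 10 CPM it was 0.141, 0.182 and 0.0967. The run term was partly fitted to P7, so its removal can draw the P7 values together. All T37 libraries were of run 3 and were not moved, so the spreads of P7 and T37 are not on equal terms. Repeat libraries of the same animal enter the error of the fit, so that the error is partly technical. With the run difference taken from the 6 repeat libraries as a fixed offset and the spread from the 7 animals alone, 819 genes were called, of which 647 were among the 759.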

How the data were processed

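Rabbit lung RNA was profiled with the QuantSeq FWD kit. The authors trimmed reads with BBduk, used STAR for alignment to OryCun2.0 and HTSeq with the Ensembl annotation for gene counts; versions are not given in the sources used here. The deposited table holds raw counts, not normalized. Libraries were mapped to animals and runs by the labels, and 0 columns were left over.

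Counts of 13 libraries were normalized by TMM and fitted in edgeR 4.0.16 (R 4.3.3) with P7, T37, 1 term for each of 3 repeated animals and the run, leaving 7 residual degrees of freedom. Genes reaching 0.5 CPM in 3 or more libraries were tested, and a call needed a change beyond 2-fold and a Benjamini-Hochberg adjusted p of at most 0.05. The approximate SE is the log2 difference divided by the root of the F value. Median levels use log2 CPM with a prior count of 2. Group lists and members were chosen with earlier results of these data known.

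The planned lists of gene symbols, markers and symbol-based naming could not be applied, because 0 identifiers were paired with symbols; at most 2 identifiers in each direction are printed, those of the largest differences among called genes with a mean of at least 2 CPM and no overlap of the groups. Groups by time course replaced the lists after the data were seen; neither gene positions nor sequences are given. Alternatives were limma-voom 3.58.1, DESeq2 1.42.0, other normalization, filters, run handling and thresholds, and each animal left out. On counts simulated for P7 against T37 over 13900 genes, edgeR called 86% of 100 genes changed by 1.5 and 97% of 100 changed by 3 on the log2 scale, with 6 false calls. The changed genes were drawn from those with a mean of at least 2 CPM. Repeat libraries and different animals were simulated with the same spread, whereas repeat libraries varied less in the data. The simulation therefore gives no rate of false calls for the data. At the depth of these libraries 0.5 CPM is a few reads. Intervals cover counting error only, since reads that carry no molecular identifiers may repeat 1 molecule. The study states that each lung came from a pup of a different dam.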

Additional observations from a re-analysis of the deposited data

Results flagged for a closer look

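Values of the 4 T37 animals were checked for 1 animal standing apart, by the gap to its nearest neighbour relative to the range of the group, for 21 measures. Chance alone gives such a result in about 1 of 20 groups, and 2 of the 21 were found, both for animal 27. The second most abundant gene was at 77100 CPM in animal 27 and at 12800 to 15100 CPM in the others, and the gap was 0.964 of the range. This gene also differed between runs 2 and 3 within single animals. It was at 24600 and 9520 CPM in F28 animal 2, 68700 and 41400 in T35 animal 6, and 70000 and 47200 in T35 animal 11. The median level of the 25 genes rising from F28 to T31 was 6.32 log2 CPM in animal 27 and 6.94 to 6.99 in the others, a gap of 0.927 of the range.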

How the results depend on the processing

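No paired analysis was possible because P7 and T37 share no animal numbers. The 759 calls (402 higher, 357 lower) became 191 (163 and 28) with P7 and T37 alone and no run term, 200 (158 and 42) with run 3 alone, where the lone P7 pup is taken to vary like T37, 247 (179 and 68) when tested against a fold change of 1.5, and 2290 (1202 and 1088) by adjusted p alone. The share of calls that were higher in P7 was 53%, and 85.3%, 79% and 72.5% under the first 3 of these. Leaving out 1 animal gave 370 (without P7 animal 1) to 1029 calls (without T37 animal 27), 226 to 488 higher and 144 to 541 lower. The calls numbered 719 with limma-voom, 669 with the animal as a random block, 772 with DESeq2, 756 with median-ratio size factors, 820 without a filter, 642 with at least 10 counts in every P7 and T37 library, 819 with the run difference as an offset and 737 with all libraries of runs 2 and 3. Of the counts of calls, 59 values stayed within 1.5 times and 16 did not; in the gene groups 232 did and 88 did not. The 241 calls between runs numbered 162 to 174 when a repeated animal was left out. The cause of these shifts was not tested. Among the 4 named genes, 68 values kept their call, 10 lost it and 0 changed sign: ENSOCUG00000017744 kept it under all alternatives run, ENSOCUG00000015884 and ENSOCUG00000022908 lost it under 4 alternatives each and ENSOCUG00000027290 under 2, with adjusted p up to 0.14, 0.251 and 0.0691. ENSOCUG00000015884 and ENSOCUG00000027290 have no value with at least 10 counts in every P7 and T37 library. Counts limit genes under 1 CPM, of which 18 were called higher and 16 lower among 2203 tested.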
